A study of Mus musculus with 8 samples.

Results

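The genes described here are 40 genes of glycolysis and of the cellular response to low oxygen, chosen by name from the 27179 Entrez Gene identifiers of a raw count table. They comprise glucose and lactate transporters, the enzymes from hexokinase to lactate dehydrogenase, the subunits of the hypoxia-inducible factors (HIFs), the enzymes that sense oxygen, and genes that HIFs are known to induce. All 40 passed the filter on low counts. RNA was sequenced in bulk from 8 samples of lung cells of C57BL/6 mice aged 18-22 weeks, all carrying the Eml4-Alk translocation, at 11-12 weeks after tumor induction. The translocation had been made in the lung by an adenovirus with Cas9 and guide RNAs, so that each lung held tumor and non-tumor cells. All mice received 4.5 nmol of QZ1 intravenously, a quenched probe that becomes fluorescent when proteases cut it, with harvest of the lungs after 2 h. Cells that were live and lacked the leukocyte proteins CD45 and CD11b were sorted, at least 100000 per sample, into a QZ1-hi (labeled QZ1+) and a QZ1-lo (labeled QZ1-) population, with 4 libraries of each. No tumor-free lung and no mouse without probe was among these libraries, so each comparison is between populations of Eml4-Alk lungs.

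Glycolysis splits glucose into pyruvate, which is either reduced to lactate and exported or oxidized in mitochondria. HIFs are pairs of an oxygen-regulated alpha subunit, encoded by Hif1a, Epas1 or Hif3a, and a stable partner encoded by Arnt. With oxygen present, prolyl hydroxylases encoded by the Egln genes mark the alpha subunits, which the Vhl protein then directs to degradation. This control acts on the protein, so that RNA levels of the subunits do not report HIF activity. In the lung, Epas1 is known for its high expression in endothelial cells and in alveolar type 2 cells.

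Total counts ranged from 18380918 to 26847938 per library, so that 3 counts, the floor of detection used here, stood at 0.0894 to 0.179 CPM, the counts scaled to a common library total. Levels are given in CPM scaled by the TMM method of edgeR, and log2 fold changes are QZ1-hi over QZ1-lo. Mitochondrial ribosomal RNA made up 50.1% ± 8.76 of counts in the QZ1-hi libraries and 37.3% ± 7.50 in the QZ1-lo libraries (SD, n = 4 each, two-sided exact permutation p = 0.0857). Summed over 7 endothelial markers, QZ1-hi libraries lay between 906 and 2145 CPM and QZ1-lo libraries between 69.7 and 276 CPM. The 6 fibroblast markers summed to 1572-3035 CPM and 38.8-353 CPM. In the other direction, the 5 ciliated cell markers summed to 67.6-197 CPM in QZ1-hi and 318-600 CPM in QZ1-lo, and the 3 club cell markers to 311-973 CPM and 1389-3998 CPM. The lung epithelial gene Sftpc, at 4064 CPM in QZ1-hi and 2371 CPM in QZ1-lo, was abundant in both. Leukocyte markers were not at 0 despite the gate, with Ptprc (CD45) at 131 and 125 CPM. In sorted bulk RNA, more cells of a type and more RNA per cell cannot be told apart.

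Most of these genes differed little between the populations, while the HIF subunit Epas1 was 4.03-fold higher in QZ1-hi. With p-values from edgeR (quasi-likelihood) adjusted by Benjamini-Hochberg over the 15583 genes tested, Epas1 and the monocarboxylate transporter Slc16a1 were higher in QZ1-hi. Ldhb, a subunit of lactate dehydrogenase, and the lactate exporter Slc16a3 were lower. These are 2 of 40 members higher, against 9.88% of all genes tested, and 2 of 40 lower, against 8.21% of all genes. At an unadjusted p under 0.05, 8 members were higher and 3 lower, which is 27.5% of members against 28.9% of all genes tested. The median log2 fold change was 0.08 over the members and 0.02 over all genes tested, and 32 of 40 members (80.0%) lay within 0.5 log2 units of 0, against 62.8% of all genes. The 95% interval of the difference stayed within 1 log2 unit in both directions for 32 members and within 0.5 for 10. The populations did not overlap for 4 members that were higher in QZ1-hi (Epas1, Egln1, Gpi1 and Ankrd37, 11.9% of all genes) and for 2 that were lower (Slc16a3 and Hk2, 10.7% of all genes), against 22.6% in either direction. Scaling by library size alone moved the median of all genes to -0.44, and with it 20 members that had been above 0 fell below 0, so the sign of a small difference rests on the scaling.

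**Figure D1:**
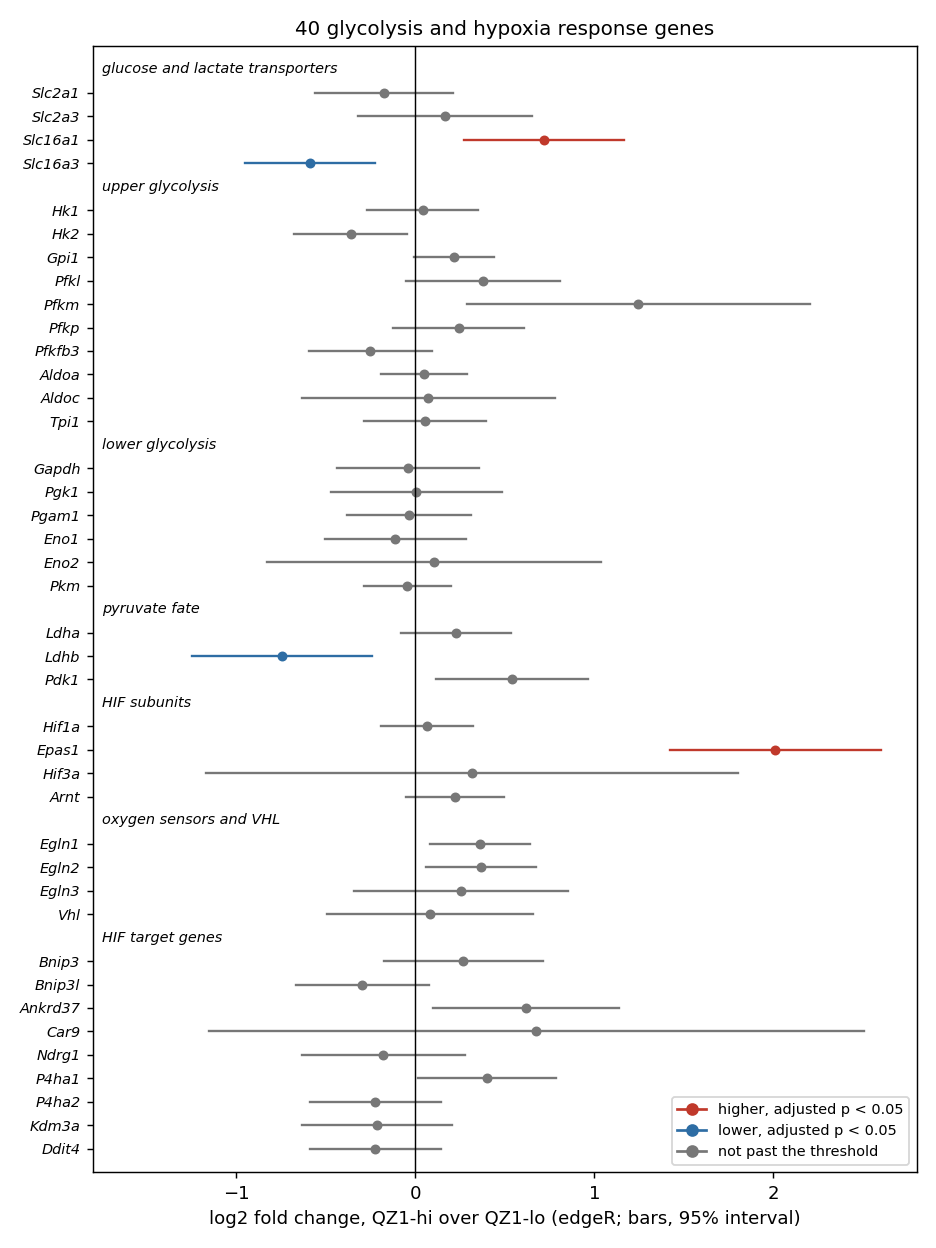
Log2 fold change of each of the 40 genes (x axis, QZ1-hi over QZ1-lo, edgeR, TMM scaling), with its 95% interval as a bar, grouped by role. Epas1 stands apart at 2.01, Slc16a1 (0.72) is higher, Slc16a3 (-0.59) and Ldhb (-0.75) are lower, and the 6 enzymes of lower glycolysis sit between -0.11 and 0.11.

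Of the HIF subunits, Epas1 encodes HIF-2 alpha (Entrez Gene 13819, protein coding, GRCm38.p6 chr17:86753700-86833410, plus strand). Its level was 959, 820, 1656 and 827 CPM in QZ1-hi libraries 1 to 4 and 195, 283, 365 and 213 CPM in QZ1-lo libraries 1 to 4. Each QZ1-hi library was more than double the highest QZ1-lo library, and library 3 was the highest among the QZ1-hi libraries. The log2 fold change was 2.01 (edgeR adjusted p = 0.000612, SE 0.27), with a mean of 1065 ± 399 CPM (SD, n = 4) against 264 ± 77.4 CPM (SD, n = 4). The difference kept its call under every alternative run, at 1.59 with library size alone and at 1.69 without QZ1-hi library 3. Endothelial markers moved with it, and all 7 were called higher. Of 6 pericyte markers, 3 were called higher and 3 did not pass, against 9.88% of all genes higher. The pericyte marker Cd248 alone was at 129 CPM in QZ1-hi library 3. Within each population, the library with the highest Epas1 level also had the highest sum of endothelial markers (2145 CPM in QZ1-hi and 276 CPM in QZ1-lo), of fibroblast markers (3035 and 353 CPM) and of pericyte markers (190 and 34.0 CPM), so that the match was not particular to endothelial cells. Alveolar type 2 markers, the other known source in lung, summed to 5544-10125 CPM in QZ1-hi and 4186-6563 CPM in QZ1-lo, with Sftpc alone of the 5 called higher. The part of any of these cell types in the Epas1 difference was not tested.

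Hif1a, which encodes the widely expressed HIF-1 alpha, was at 119, 96.6, 95.6 and 108 CPM in QZ1-hi libraries 1 to 4 and at 103, 108, 89.8 and 101 CPM in QZ1-lo libraries 1 to 4. The populations overlapped, and the log2 fold change was 0.06 (95% interval -0.19 to 0.32, adjusted p = 0.786, edgeR). Arnt, the partner subunit, had a value of 0.22 (-0.05 to 0.50). Hif3a, whose product can restrain the other subunits, was low at 0.366 to 3.34 CPM (9 to 59 counts per library), and its interval ran from -1.17 to 1.80. Set against exonic length, Epas1 was the highest of all 40 genes in QZ1-hi, at 191 CPM per kilobase, ahead of Aldoa at 73.9. In QZ1-lo, Aldoa came first at 71.5 CPM per kilobase and Epas1 second at 47.3, while Hif1a stood at 17.8 in QZ1-hi and 17.0 in QZ1-lo. These lengths cover all annotated exons of a gene, while the annotation used for the counts is not stated. Some of the 40 genes also share sequence with other genes, as given below, so such ranks are approximate.

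**Figure D2:**
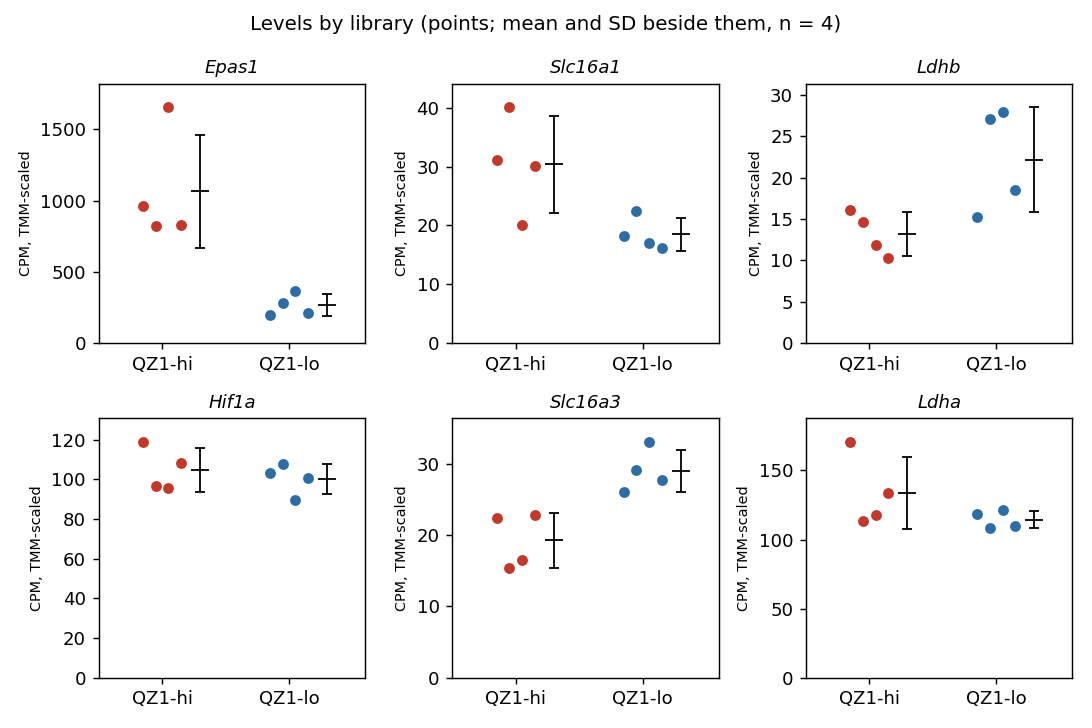
Level of 6 genes in CPM (y axis, from 0, TMM-scaled) in the 4 QZ1-hi libraries (red) and the 4 QZ1-lo libraries (blue), with the mean and SD as a black bar. Epas1 and Slc16a3 separate the populations completely, Slc16a1 and Ldhb overlap by 1 library, and the populations overlap for Hif1a and Ldha.

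The oxygen sensors were all measured slightly above 0 without passing the threshold. Egln1 encodes PHD2, the main HIF prolyl hydroxylase. It ranged from 39.7 to 47.3 CPM in QZ1-hi and from 27.9 to 37.1 CPM in QZ1-lo, with no overlap and a log2 fold change of 0.36 (edgeR adjusted p = 0.0767, SE 0.13). Egln2 (PHD1) had a value of 0.37 (edgeR adjusted p = 0.103, SE 0.14), with QZ1-lo library 3 at 29.6 CPM inside the QZ1-hi range of 29.1 to 32.0 CPM. Egln2 passed without QZ1-lo library 3 (0.48, adjusted p = 0.0308, edgeR). Both genes passed with limma-voom (adjusted p = 0.0482 for Egln1 and 0.0402 for Egln2) and both fell below 0 with library size alone (-0.0972 and -0.11). Egln3 (PHD3), itself a HIF target, was lower in level at 3.85 to 8.56 CPM and had a value of 0.26 (95% interval -0.34 to 0.85). Vhl, the substrate receptor of the ubiquitin ligase that degrades HIF alpha, had a value of 0.08 (-0.49 to 0.66).

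The lactate transporters moved in opposite directions, while the glucose transporters did not pass the threshold. Slc16a1 encodes MCT1, which carries lactate and pyruvate into or out of cells (Entrez Gene 20501, GRCm38.p6 chr3:104638668-104658462, plus strand). Slc16a3 encodes MCT4, the low-affinity exporter of glycolytic cells (Entrez Gene 80879, chr11:120948480-120960868, plus strand). Slc16a1 stood at 31.2, 40.1, 20.1 and 30.2 CPM in QZ1-hi libraries 1 to 4 and at 18.2, 22.5, 16.9 and 16.2 CPM in QZ1-lo libraries 1 to 4. QZ1-hi library 3 lay inside the QZ1-lo range and the other QZ1-hi libraries above it. The log2 fold change was 0.72 (edgeR adjusted p = 0.0302, SE 0.20). For Slc16a3, the levels were 22.4, 15.5, 16.5 and 22.8 CPM in QZ1-hi and 26.1, 29.2, 33.1 and 27.7 CPM in QZ1-lo, in the same order of libraries. Every QZ1-hi library was below every QZ1-lo library, and the log2 fold change was -0.59 (edgeR adjusted p = 0.0293, SE 0.17).

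Both calls lie near the threshold. That of Slc16a1 was lost with library size alone (0.25, adjusted p = 0.505, edgeR) and without QZ1-hi library 1 or 2 or QZ1-lo library 1, 3 or 4, over a range of 0.54 to 0.85 and adjusted p-values from 0.00981 to 0.103. That of Slc16a3 was lost without QZ1-hi library 2 or 3 or QZ1-lo library 2, 3 or 4, over a range of -0.67 to -0.52 and adjusted p-values (edgeR) from 0.0225 to 0.0759. The log2 ratio of Slc16a3 to Slc16a1 within a library was -1.37 to -0.28 in QZ1-hi and 0.38 to 0.97 in QZ1-lo, a difference of -1.29 with no overlap (two-sided exact permutation p = 0.0286, the lowest that 4 libraries against 4 allow, and 0.114 adjusted over 8 ratios). Of the glucose carriers, Slc2a1 (GLUT1) had a log2 fold change of -0.17 (95% interval -0.56 to 0.21) at 18.2 to 30.1 CPM over all libraries. Slc2a3 (GLUT3) had a value of 0.16 (-0.32 to 0.65) at 8.11 to 17.0 CPM.

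HIFs bind DNA at the letters ACGTG or GCGTG, the core of the hypoxia response element. The promoters of both lactate transporters and of both lactate dehydrogenase genes are printed here. They were chosen because members of each pair lie on opposite sides of 0 in their difference between the populations. For the second pair this rests on Ldha at 0.23, which did not pass and was at -0.21 with library size alone. Each line gives the 250 bases before the RefSeq start site on GRCm38.p6, 5′ to 3′ on the strand of the gene, with the core on either strand in capitals (CACGT and CACGC are its reverse forms, and CACGTG holds it on both strands).
Slc16a1, chr3:104638414-104638663, plus strand: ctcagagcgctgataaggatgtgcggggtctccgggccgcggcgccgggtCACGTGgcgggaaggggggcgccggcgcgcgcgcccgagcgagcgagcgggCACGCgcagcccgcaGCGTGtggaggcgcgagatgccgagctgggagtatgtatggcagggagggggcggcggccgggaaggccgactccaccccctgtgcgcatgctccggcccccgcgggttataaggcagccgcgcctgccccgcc
Slc16a3, chr11:120948817-120949066, plus strand: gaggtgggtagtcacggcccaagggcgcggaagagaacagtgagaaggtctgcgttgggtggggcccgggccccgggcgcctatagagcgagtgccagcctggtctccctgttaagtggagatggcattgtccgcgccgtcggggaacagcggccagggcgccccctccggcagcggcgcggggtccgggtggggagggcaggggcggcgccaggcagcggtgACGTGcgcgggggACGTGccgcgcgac
Ldha, first of 2 start sites, chr7:46845554-46845803, plus strand: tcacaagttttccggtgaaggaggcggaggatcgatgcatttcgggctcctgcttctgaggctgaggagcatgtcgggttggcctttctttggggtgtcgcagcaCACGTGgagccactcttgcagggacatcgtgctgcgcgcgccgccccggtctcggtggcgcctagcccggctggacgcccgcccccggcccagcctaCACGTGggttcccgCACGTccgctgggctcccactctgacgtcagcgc
Ldhb, chr6:142507958-142508207, minus strand: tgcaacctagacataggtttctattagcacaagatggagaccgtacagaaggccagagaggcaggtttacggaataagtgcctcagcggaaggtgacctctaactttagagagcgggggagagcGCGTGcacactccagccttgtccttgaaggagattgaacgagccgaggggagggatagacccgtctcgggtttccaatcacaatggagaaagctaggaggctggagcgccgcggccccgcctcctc
The core occurred 4 times in the window of Slc16a1, 2 times in that of Slc16a3, 5 times in that of Ldha and 1 time in that of Ldhb, with each strand of a CACGTG counted. Of the 36 members with a window, 32 (88.9%) held it at least once, against 58.5% of the 11627 genes tested that have a window and 41.5% of all 27025 genes with a window. The members called lower, Slc16a3 and Ldhb, both held it, as did Slc16a1, called higher. Epas1, Ndrg1, Bnip3l and Slc2a3 had no entry. The match is one of letters and does not show a site in use.

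As a sum, the enzymes of the glycolytic trunk were measured at nearly equal levels. Summed over 17 enzyme genes from hexokinase to lactate dehydrogenase, libraries held 864 to 1111 CPM in QZ1-hi and 928 to 978 CPM in QZ1-lo, the latter range lying inside the former. Aldoa, Pkm and Ldha weigh most in this sum, with means of 215, 194 and 134 CPM in QZ1-hi. Of these 17 genes, Ldhb alone passed the threshold in edgeR, and their median log2 fold change was 0.05. Aldoa, the main aldolase, which splits the sugar phosphate of hexose into triose phosphates, was the most abundant at 194 to 237 CPM in QZ1-hi and 201 to 216 CPM in QZ1-lo. The log2 fold change was 0.05 (95% interval -0.19 to 0.29, adjusted p = 0.828, edgeR). Pkm, the pyruvate kinase gene, followed at 166 to 212 CPM and 196 to 203 CPM, with a value of -0.04 (-0.29 to 0.20, adjusted p = 0.848, edgeR). Under library size alone, Aldoa was at -0.41 with all genes at a median of -0.44.

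In the upper part of the pathway, Hk1 and Hk2 encode the hexokinases that commit glucose to the cell. Hk1 had a log2 fold change of 0.04 (SE 0.14). Hk2, the inducible form and a known HIF target, ranged from 35.0 to 52.5 CPM in QZ1-hi and from 52.8 to 59.6 CPM in QZ1-lo, with no overlap. Its value was -0.36 (edgeR adjusted p = 0.115, SE 0.14), and it passed with library size alone (-0.82, adjusted p = 0.0258). Gpi1, which isomerizes glucose-6-phosphate, also did not overlap, at 60.01 to 68.8 CPM in QZ1-hi and 53.8 to 56.3 CPM in QZ1-lo, but had a small value of 0.22 (edgeR adjusted p = 0.187, SE 0.10).

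The 3 phosphofructokinase genes, whose product is the main point of control, were all measured above 0. Pfkm, the muscle form, had the largest value of any member that did not pass, 1.25 (edgeR adjusted p = 0.0743, SE 0.44), at only 4.41 to 7.31 CPM in QZ1-hi and 0.900 to 4.44 CPM in QZ1-lo. QZ1-lo library 1 was its highest QZ1-lo library, and without it the value was 1.72 (adjusted p = 0.0194, edgeR). It also passed with DESeq2 (adjusted p = 0.0342) and limma-voom (adjusted p = 0.0358). Pfkl and Pfkp, the liver and platelet forms, had values of 0.38 (SE 0.20) and 0.24 (SE 0.17), and both fell below 0 with library size alone (-0.0335 and -0.26). Pfkfb3, which makes the activator fructose-2,6-bisphosphate, had a value of -0.25 (SE 0.16). Tpi1 (triose phosphate isomerase) and Aldoc (the brain aldolase) were at 0.05 (SE 0.16) and 0.07 (SE 0.32).

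The lower part of the pathway differed little between the populations. Gapdh, Pgk1, Pgam1, Eno1, Eno2 and Pkm, which carry the triose phosphates to pyruvate, had log2 fold changes from -0.11 to 0.11, with the populations overlapping for each. Gapdh was at 14.2 to 18.5 CPM in QZ1-hi and 13.0 to 20.4 CPM in QZ1-lo, a value of -0.04 (95% interval -0.43 to 0.36). Set against exonic length, Gapdh stood at 3.95 CPM per kilobase in QZ1-hi, below Aldoa (73.9) and Pkm (38.8) of the same pathway. Several of these genes share sequence with others: 25.1% of the 50-base stretches of Gapdh transcripts also occur in other genes, 223 genes in all. The share was 53.9% for Pgk1 (most with Pgk1-rs7), 36.2% for Pgam1 and 26.0% for Eno1 (most with Eno1b). For Pkm it was 25.8%, with 12.1% shared with Gm49759, whose exons overlap those of Pkm on the same strand. How reads that match several genes were counted is not stated, so the levels of these genes are uncertain. Eno2, the neuronal enolase, was low at 1.25 to 3.54 CPM (31 to 87 counts per library), and its 95% interval ran from -0.83 to 1.04.

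At the branch after pyruvate, Ldhb was lower in QZ1-hi. Lactate dehydrogenase is a tetramer of Ldha subunits, which favor lactate formation, and Ldhb subunits (Entrez Gene 16832, GRCm38.p6 chr6:142490249-142507957, minus strand), which favor the return to pyruvate. Ldhb stood at 16.1, 14.6, 11.9 and 10.2 CPM in QZ1-hi libraries 1 to 4 and at 15.2, 27.1, 27.9 and 18.5 CPM in QZ1-lo libraries 1 to 4. Only QZ1-hi library 1 and QZ1-lo library 1 crossed, and the log2 fold change was -0.75 (edgeR adjusted p = 0.0441, SE 0.23). The call was lost with limma-voom (-0.61, adjusted p = 0.105) and without QZ1-hi library 2, 3 or 4 or QZ1-lo library 2 or 3, over a range of -0.89 to -0.61 and adjusted p-values (edgeR) from 0.0210 to 0.128. The gene Gm5514 holds 20.99% of the 50-base stretches of Ldhb. Ldha stood at 171, 114, 118 and 133 CPM in QZ1-hi and at 118, 109, 121 and 110 CPM in QZ1-lo, in the same order of libraries. Its range in QZ1-lo lay within that in QZ1-hi but for 2 libraries, and its value was 0.23 (95% interval -0.08 to 0.53, adjusted p = 0.333, edgeR).

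The log2 ratio of Ldhb to Ldha averaged -3.34 ± 0.31 for QZ1-hi and -2.41 ± 0.44 for QZ1-lo (SDs over 4 libraries each), a difference of -0.93 with the populations crossing by 1 library (two-sided exact permutation p = 0.0571, adjusted 0.152). Pdk1, a kinase that inhibits pyruvate dehydrogenase and a known HIF target, was at 15.3 to 18.9 CPM in QZ1-hi. In QZ1-lo it was at 9.52 to 10.3 CPM in libraries 1 to 3 and at 15.7 CPM in library 4. Its value was 0.54 (edgeR adjusted p = 0.0789, SE 0.19), and without QZ1-lo library 4 it was 0.73 (adjusted p = 0.0172, edgeR). Club and ciliated cell markers, at lower sums in QZ1-hi as given above, differed between the populations in the same direction as Ldhb and Slc16a3. Within QZ1-hi, library 1 had the highest Ldhb level but the lowest club and ciliated sums (311 and 67.6 CPM). Library 2 of QZ1-hi had the lowest Slc16a3 level but the highest of these sums (973 and 197 CPM). Within QZ1-lo, library 3 had the highest Ldhb and Slc16a3 levels and the highest ciliated sum (600 CPM), and library 2 the highest club sum (3998 CPM). All 3 club and all 5 ciliated markers were called lower, and of 5 alveolar type 1 markers 4 were lower and Pdpn was higher. The part of these cell types in the Ldhb or Slc16a3 difference was not tested.

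**Figure D3:**
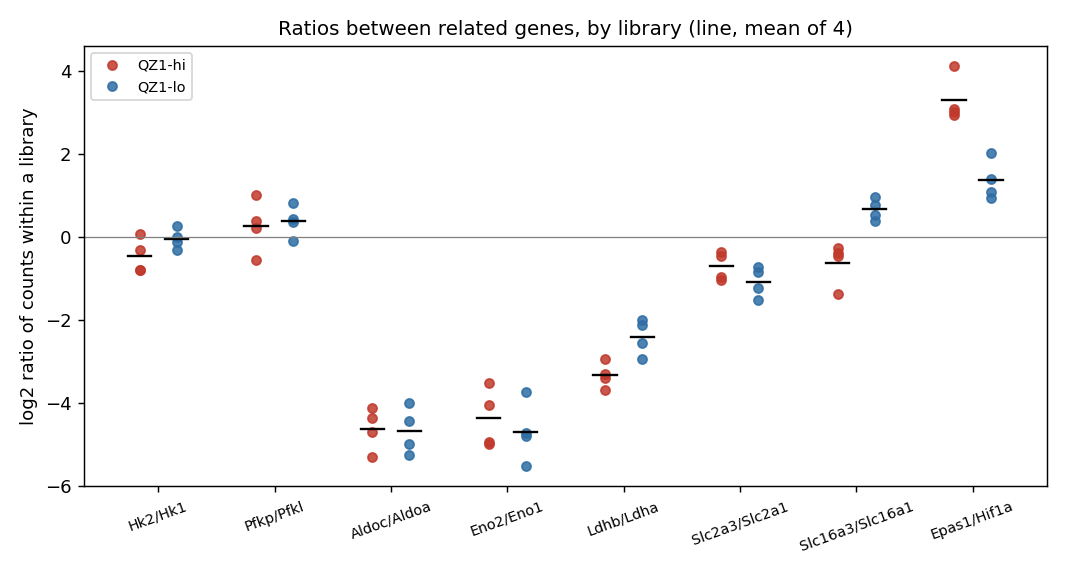
Log2 ratio of the counts of 2 related genes within each library (y axis), for 8 ratios (x axis), with QZ1-hi in red, QZ1-lo in blue and the mean of 4 libraries as a line. Slc16a3/Slc16a1 and Epas1/Hif1a separate the populations (differences of -1.29 and 1.93), while the populations overlap for Pfkp/Pfkl and Aldoc/Aldoa (-0.12 and 0.05).

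Ratios of related genes within a library do not depend on scaling. The log2 ratio of Epas1 to Hif1a was 2.93 to 4.11 in QZ1-hi and 0.92 to 2.02 in QZ1-lo, a difference of 1.93 (two-sided exact permutation p = 0.0286, adjusted 0.114 over 8 ratios). No ratio passed after this adjustment, but Epas1 to Hif1a and Slc16a3 to Slc16a1 were already at the lowest p that 4 libraries against 4 allow. With only these at that floor, the adjusted values over 8 ratios could not fall under 0.05. The ratios of Hk2 to Hk1 (-0.41, p = 0.171), Slc2a3 to Slc2a1 (0.37, p = 0.200), Eno2 to Eno1 (0.32, p = 0.543), Pfkp to Pfkl (-0.12, p = 0.771) and Aldoc to Aldoa (0.05, p = 0.914) overlapped between the populations (exact permutation tests, two-sided, unadjusted).

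The members grouped as HIF target genes number 9, and other members such as Hk2, Pdk1 and Egln3 are targets as well. The group thus does not hold every target among the members. All 4 members that passed the threshold in edgeR, Slc16a3 among them, lie outside it. None of the 9 in this group passed the threshold in edgeR. Of them, 2, Ankrd37 and P4ha1, were above 0 at an unadjusted p under 0.05, as were 2403 of all 15583 genes tested. The populations did not overlap for Ankrd37, an ankyrin repeat gene strongly induced by hypoxia, at 6.47 to 7.67 CPM in QZ1-hi and 3.55 to 5.75 CPM in QZ1-lo. The log2 fold change was 0.62 (edgeR adjusted p = 0.102, SE 0.24), and limma-voom gave an adjusted p of 0.0489. Exons of Ankrd37 overlap Lrp2bp and Ufsp2 on the opposite strand, and the strand setting of the counting is not stated. P4ha1 and P4ha2 encode collagen prolyl 4-hydroxylase subunits. They had values of 0.40 (SE 0.18, unadjusted p = 0.0441 and adjusted p = 0.159, edgeR) and -0.22 (SE 0.17), of which P4ha1 turned to -0.0771 with library size alone.

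Bnip3 and Bnip3l, which direct mitochondria to autophagy, were at 0.27 (SE 0.20) and -0.30 (SE 0.17). Of the 50-base stretches of Bnip3, 47.2% also occur in other genes. Ndrg1 (a stress-responsive gene), Kdm3a (a histone demethylase) and Ddit4 (an inhibitor of mTORC1) had values of -0.18 (SE 0.21), -0.22 (SE 0.19) and -0.22 (SE 0.17). Car9, the surface carbonic anhydrase widely used as a marker of hypoxic tumor cells, was low, at 5 to 72 counts per library. Its level was 0.551, 1.48, 3.47 and 0.894 CPM in QZ1-hi libraries 1 to 4 and 0.716, 0.448, 2.61 and 0.205 CPM in QZ1-lo libraries 1 to 4. The counts, 118 in all QZ1-hi libraries and 112 in all QZ1-lo libraries, gave a value of 0.68 with an interval of -1.15 to 2.50, and library 3 was the highest within each population.

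Other HIF regulators and targets, a list of 30 genes beside the members, held more calls. Of the 29 that were tested, 8 were higher, 1 was lower and 20 did not pass in edgeR, against 9.88% of all genes higher and 8.21% lower, with a median log2 fold change of 0.12. The largest values belonged to Lox and Loxl2, which cross-link collagen, at 3.18 (edgeR adjusted p = 0.000707, SE 0.44) and 3.08 (edgeR adjusted p = 0.000723, SE 0.43). Lox went from 1.76 ± 1.02 CPM in QZ1-lo to 16.1 ± 4.60 CPM in QZ1-hi (SDs of 4 libraries each). Plod2, a collagen lysyl hydroxylase, followed with 2.44 (SE 0.35), and Pgf, a VEGF family ligand, with 2.19 (edgeR adjusted p = 0.0349, SE 0.64). Pgf was at 3.06 ± 1.91 CPM (SD, n = 4) against 0.672 ± 0.354 CPM (SD, n = 4), with overlap, and its call was lost with library size alone (adjusted p = 0.0720, edgeR), with limma-voom (adjusted p = 0.0791) and without any of QZ1-hi libraries 2 and 3 and QZ1-lo libraries 1 to 3 (adjusted p = 0.0567 to 0.115, edgeR). The gene that was lower was Bhlhe40, a transcriptional repressor, at -0.56 (edgeR adjusted p = 0.00720, SE 0.12).

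With library size alone, 3 of these 29 genes were higher and 2 lower, against 5.66% and 16.1% of all genes. Lox, Loxl2 and Plod2 kept values of 2.71, 2.68 and 1.99. The 6 fibroblast markers were all called higher, by 3.16 to 3.89 log2 units, as were these collagen-modifying genes. The 7 endothelial markers (2.54 to 3.79) and 3 mesothelial markers (1.91 to 3.26) were also all called higher, so the match was not particular to fibroblasts. Within QZ1-hi, library 3 had the highest fibroblast sum and the highest Loxl2 and Plod2 levels, but the lowest Lox level (11.9 CPM). The part of any of these cell types in the differences was not tested. Vegfa, named after its values were seen, is the HIF target that drives vessel growth. It was at 217 ± 16.6 CPM in QZ1-hi and 249 ± 34.8 CPM in QZ1-lo (SDs of 4 libraries each), a value of -0.20 (edgeR adjusted p = 0.354, SE 0.13).

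**Figure D4:**
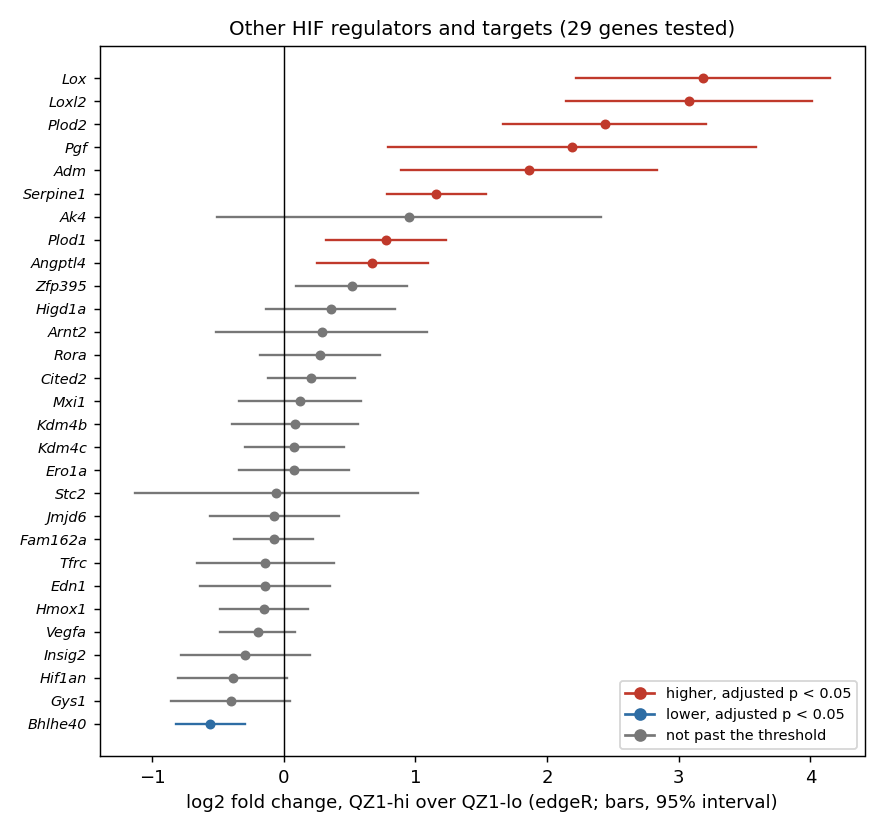
Log2 fold change (x axis, QZ1-hi over QZ1-lo, edgeR) with its 95% interval for the 29 tested genes of the list of other HIF regulators and targets, ordered by value. The 8 genes called higher reach from 0.67 to 3.18, Bhlhe40 (-0.56) is the gene called lower, and the other 20 intervals are in gray.

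Of 18 other glycolytic isozymes and regulators, 15 were tested, and 1 was lower (8.21% of all genes) and 14 did not pass in edgeR. The gene that was lower was Pfkfb2, which encodes another form of the enzyme that sets fructose-2,6-bisphosphate. It went from 63.2 ± 8.38 CPM in QZ1-lo to 40.03 ± 7.48 CPM in QZ1-hi (SDs of 4 libraries each) without overlap, a log2 fold change of -0.66 (edgeR adjusted p = 0.0138, SE 0.16). With library size alone, 4 of the 15 were lower, against 16.1% of all genes. A further list held 13 genes that govern the entry of pyruvate to mitochondria and its oxidation there. Of these, 2 were higher, 1 was lower and 10 did not pass, beside 18.1% of all genes called in either direction. Those higher were the kinase Pdk2 (0.56, edgeR adjusted p = 0.0368, SE 0.17) and the phosphatase Pdp2 (1.15, edgeR adjusted p = 0.0470, SE 0.36), which act against each other on pyruvate dehydrogenase. The kinase Pdk4 was lower (-0.77, edgeR adjusted p = 0.0368, SE 0.23). The call was lost for Pdk2 in 7, for Pdk4 in 7 and for Pdp2 in 8 of 8 tests without 1 library, Pdk2 being kept without QZ1-lo library 3 and Pdk4 without QZ1-hi library 4. Library size alone ended those of Pdk2 and Pdp2 (adjusted p = 0.824 and 0.284, edgeR). It left 0 of the 13 genes higher and 3 lower, against 5.66% and 16.1% of all genes.

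Several members also respond to cell stress, so genes known to be induced during tissue dissociation were counted as well. Of 15 such genes, 6 were higher and 0 lower in QZ1-hi in edgeR, against 9.88% and 8.21% of all genes, with a median log2 fold change of 0.40 and the largest for Egr1 (0.87, SE 0.22, adjusted p = 0.0167), Jun (0.86, SE 0.22, adjusted p = 0.0185), Fos (0.86, SE 0.18, adjusted p = 0.00770) and Ier2 (0.82, SE 0.20, adjusted p = 0.0147). The calls of Egr1 and Jun were lost without QZ1-hi library 2 or 3 or QZ1-lo library 1 (adjusted p = 0.0502 to 0.0562, edgeR). With library size alone, 0 of the 15 were called, against 5.66% of all genes higher and 16.1% lower. DESeq2 and limma-voom each called 7 higher, against 8.85% and 10.9% of all genes. No list of stress-responsive members was set, so the members were not counted in this way. Ddit4 and Pfkfb3, named only as examples, were at -0.22 and -0.25 and did not pass. The part of dissociation in the value of any member was not tested.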

How the data were processed

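RNA was measured by bulk RNA-seq, with 4 libraries per population. The deposited values are raw counts per Entrez Gene identifier, which the authors made from aligned reads with Rsubread in R (v4), without normalization. The build is mm10 per the submitters' processing notes. The aligner, annotation, strand setting and treatment of multiply matching reads are not given in the sources used here. The library kit was a stranded total RNA kit.

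Of 27179 identifiers, 25275 were given a symbol through the RefSeq table of GRCm38.p6 and 1904 had none (3.43% to 7.23% of counts). All 40 members and all listed genes matched. Counts were tested in R 4.3.3 with edgeR 4.0.16 (TMM factors from 0.660 to 1.35, filterByExpr with a minimum count of 10 and a total of 15, quasi-likelihood test, Benjamini-Hochberg threshold of 0.05, common dispersion 0.113). SEs were taken as log2 fold change over root F, and 95% intervals use the test's degrees of freedom. Floors of 3 counts cover counting error only. Exonic length, exon overlap and shared 50-base stretches come from GENCODE M21 (GRCm38.p6). Alternatives were DESeq2 1.42.0, limma 3.58.1 (voom with sample quality weights), other scalings and filters, and each library left out in turn. The procedure was also run on simulated counts, drawn at the common dispersion for all genes with changes balanced in direction. Such a run does not measure error rates in these data. The text names all members, called genes of the other lists (at most 4 of the largest per list and direction) and marker sums. The members and lists were chosen with earlier results of these data known. The series calls the libraries biological replicates, but nothing links a QZ1-hi to a QZ1-lo library of one mouse.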

Additional observations from a re-analysis of the deposited data

Results flagged for a closer look

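In 80 groups of 4 libraries (each member in each population), 7 held a library far from the others by Dixon's criterion (the gap to its nearest neighbor against the range). Chance flags about 1 in 20 such groups. QZ1-hi library 3 had the highest Epas1 level, 1656 CPM against 820 to 959 CPM in the other QZ1-hi libraries, and the lowest Bnip3 level, 7.17 CPM against 8.54 to 8.69 CPM. QZ1-hi library 4 had the highest Hif3a level, 3.34 CPM against 0.938 to 1.16 CPM, and the lowest P4ha2 level, 18.3 CPM against 23.3 to 23.6 CPM. QZ1-lo library 3 had the highest Pfkl level, 40.7 CPM against 29.5 to 31.4 CPM, and the highest Kdm3a level, 55.8 CPM against 32.4 to 35.4 CPM. QZ1-lo library 4 had the highest Pdk1 level, 15.7 CPM against 9.52 to 10.3 CPM.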

How the results depend on the processing

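With library size alone, the all-gene median (log2 fold change) moved from 0.02 to -0.44, the counts of genes called to 882 higher and 2509 lower (26.0% of calls higher, against 54.6%), and those of members to 1 higher and 4 lower, with the same 2 numbers of members without overlap (1 and 4). It also turned 20 members below 0: Slc2a3 -0.30, Hk1 -0.41, Gpi1 -0.24, Pfkl -0.0335, Pfkp -0.26, Aldoa -0.41, Aldoc -0.48, Tpi1 -0.38, Pgk1 -0.44, Eno2 -0.30, Ldha -0.21, Hif1a -0.38, Hif3a -0.28, Arnt -0.25, Egln1 -0.0972, Egln2 -0.11, Egln3 -0.16, Vhl -0.44, Bnip3 -0.21 and P4ha1 -0.0771. With limma-voom, 6 members were higher and 1 lower, against 10.9% and 8.27% of all genes. Aldoc was then at -0.0117 and Pgk1 at -0.0381. Pgk1 was also below 0 with DESeq2 (-0.00429) and with its size factors (-0.00463). At an adjusted p under 0.01, 902 genes and 1 member were higher and 665 genes and 0 members were lower. Without each library in turn, 1 to 2 members were higher and 0 to 2 lower, with 1136 to 1506 and 938 to 1201 of all genes. Members whose sign changed in such fits ranged from -0.0506 to 0.17 (Hk1), -0.000265 to 0.0676 (Aldoa), -0.13 to 0.35 (Aldoc), -0.0561 to 0.17 (Tpi1), -0.14 to 0.0707 (Gapdh), -0.14 to 0.19 (Pgk1), -0.14 to 0.0109 (Pgam1), -0.23 to 0.00286 (Eno1), -0.0886 to 0.44 (Eno2), -0.00214 to 0.0995 (Hif1a), -0.25 to 0.65 (Hif3a), -0.0669 to 0.20 (Vhl), -0.0344 to 1.78 (Car9) and -0.33 to 0.00391 (Kdm3a). The log2 ratio difference ranged from -0.36 to 0.16 for Pfkp/Pfkl and from -0.14 to 0.28 for Aldoc/Aldoa. The cause of these changes was not tested. Epas1 kept its call and direction under all of these settings. Fits of the genes of the other pathway lists under these settings were chosen after seeing the data. No paired analysis was possible because neither the labels nor the column names link libraries of one mouse. Hif3a and Car9 had the widest intervals of the members, and how far low counts or spread between libraries set these was not tested.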

Other observations

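In this cell mixture, Mki67, a marker of dividing cells, was 99.5 ± 17.0 CPM in QZ1-hi and 69.8 ± 12.8 CPM in QZ1-lo (SDs of 4 libraries each) without overlap, a log2 fold change of 0.51 (edgeR adjusted p = 0.0469, SE 0.16), and Top2a and Cdk1, the other 2 genes of that list, did not pass. Erythroid markers were present in all libraries, summing to 61.9-473 CPM in QZ1-hi and 131-1467 CPM in QZ1-lo, and 0 of the 4 were called in edgeR. Bpgm, the glycolytic side-branch enzyme known for its role in red cells and named after its values were seen, was at 23.3 ± 10.6 CPM in QZ1-hi and 46.8 ± 33.5 CPM in QZ1-lo (SDs of 4 libraries each), a value of -1.01 (edgeR adjusted p = 0.177, SE 0.46). Its relation to the erythroid markers was not tested. The 6 pericyte markers, of which 3 were called higher and 3 did not pass, summed to 91.9-190 CPM in QZ1-hi and 8.47-34.0 CPM in QZ1-lo. The sums were 25.0-38.8 and 10.3-21.5 CPM for 4 smooth muscle markers and 29.7-208 and 5.44-27.5 CPM for 3 mesothelial markers. They were 408-643 and 794-965 CPM for 5 alveolar type 1 markers and 2862-6125 and 2058-4029 CPM for 6 leukocyte markers. Of the latter, Lyz2, also made by alveolar type 2 cells, was the most abundant. Among the 4 smooth muscle markers, 2 were called higher, 1 was lower and 1 did not pass, against 9.88% and 8.21% of all genes. The marker called lower, Cnn1 (-4.81, edgeR adjusted p = 0.0118), had 1 count in all QZ1-hi libraries and 56 in all QZ1-lo libraries.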
